A study of Mus musculus with 31 samples.

Results

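The genes described here encode the machinery that imports proteins into mitochondria. They are the 37 of 20544 gene rows whose symbols begin with Timm, Tomm, Samm, Pam16, Dnajc19, Dnlz, Mtx1, Mtx2, Immp, Pmpca or Pmpcb, and they were followed across 31 single 2-cell mouse embryos. The embryos were made by in vitro fertilization, 16 with control sperm and 15 with sperm that had passed through energy restriction and recovery (SER), in which sperm lose motility without energy substrates and regain it when these are given back. The question was how the sperm treatment before fertilization relates to gene expression in the embryo after the major activation of its genome. Sperm came from wild-type C57BL/6J males aged 12 to 14 weeks, and for each male 1 cauda epididymis went to each treatment. The SER sperm were kept without energy substrates until they stopped moving, which took 15 to 45 min. Eggs came from superovulated CD1 females aged 8 to 10 weeks. Sperm and eggs were kept together for 4 h, and 2-cell embryos were collected at 32 h post-insemination (HPI). No label names the male, female or batch of an embryo, so p-values measure the spread between these embryos only.

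Nearly all mitochondrial proteins are made in the cytosol and enter through the translocase of the outer membrane (TOM). From there, barrel-shaped proteins go back into the outer membrane through the sorting and assembly machinery (SAM), aided by the small TIM chaperones of the intermembrane space. Carrier proteins reach the inner membrane through the TIM22 complex, and proteins with a cleavable presequence pass through the TIM23 complex, pulled by a motor built on a mitochondrial Hsp70. Peptidases then remove the presequences. At this stage the mitochondria of the embryo are inherited from the egg, and transcripts stored in the egg are being replaced by those of the embryo's own genome.

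The start regions of 34 of the 37 genes were found in RefSeq (build GRCm38.p6), and Tomm7, Tomm40l and Timm21 were not matched. The 6 stretches printed here belong to the genes on which the results turn, which are Timm8b and Immp1l, the members with the smallest p values in the comparison of the groups, and Timm10, Tomm22, Tomm20 and Tomm5, which varied together from embryo to embryo. Each gives the 150 bases before the start, 5′ to 3′ on the gene's strand, and capitals mark matches on either strand to 6 motifs. These were the core of an ETS factor site, spelled CCGGAAG, an NRF1 site, spelled GCGCNTGCG, a YY1 site, spelled ATGGCGGC, the CCAAT box, a GC box with the letters GGGCGG, and a TATA box with the letters TATAAA.
Timm8b (chr9:50603751-50603900, plus strand): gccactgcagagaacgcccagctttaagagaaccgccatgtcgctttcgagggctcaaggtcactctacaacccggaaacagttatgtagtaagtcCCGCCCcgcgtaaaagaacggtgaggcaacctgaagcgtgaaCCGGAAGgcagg
Immp1l (chr2:105904488-105904637, plus strand): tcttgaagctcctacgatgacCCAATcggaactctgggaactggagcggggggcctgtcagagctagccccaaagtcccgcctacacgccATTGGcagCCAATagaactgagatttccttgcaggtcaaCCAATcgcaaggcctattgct
Timm10 (chr2:84826871-84827020, plus strand): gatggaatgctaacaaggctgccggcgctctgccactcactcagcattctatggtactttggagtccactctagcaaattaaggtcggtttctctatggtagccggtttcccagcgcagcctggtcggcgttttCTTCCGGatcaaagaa
Tomm22 (chr15:79670718-79670867, plus strand): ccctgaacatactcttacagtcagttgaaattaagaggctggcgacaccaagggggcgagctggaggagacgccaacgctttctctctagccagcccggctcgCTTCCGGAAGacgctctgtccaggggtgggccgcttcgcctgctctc
Tomm20 (chr8:126945922-126946071, minus strand): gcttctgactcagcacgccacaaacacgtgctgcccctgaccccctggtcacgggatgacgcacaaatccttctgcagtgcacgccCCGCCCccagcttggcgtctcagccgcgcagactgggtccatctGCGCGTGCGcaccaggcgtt
Tomm5 (chr4:45108114-45108263, minus strand): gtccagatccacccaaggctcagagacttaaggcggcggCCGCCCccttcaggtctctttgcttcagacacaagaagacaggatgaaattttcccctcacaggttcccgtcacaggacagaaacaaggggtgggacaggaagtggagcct

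Timm8b held the ETS letters at position -12 and Timm10 at -16, counted from the start. In Tomm22 the matches on both strands, at -47 and -44, overlapped. Tomm20 held the NRF1 letters at -20, and Immp1l held CCAAT at 4 places in the printed stretch. Over the 250 bases before the start, CCGGAAG was present in 13 of 34 import genes (38.2%), in 17.8% of 6920 genes of the group comparison with a start region, and in 7.83% of all 27025 genes. The NRF1 letters were present in 3 of 34 import genes and 14.7% of the genes compared, and the TATA letters in 3 and 7.31%. CCAAT was present in 11 of 34 and 41.9%, the GC box in 19 of 34 and 66.2%, and the YY1 letters in Immp1l alone among the 34 and in 2.57%. These are matches of letters, and no factor was measured.

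The 37 genes together took a median of 0.192% of the counts in control-generated embryos (0.0920% to 0.415%) and 0.193% in SER-generated embryos (0.105% to 0.306%). Library totals ran from 532945 to 2085222 counts in the control group and from 642321 to 3088396 in the SER group, and no libraries were identical. CPM (counts scaled to a common library total) give a transcript's share of its library, so less of a transcript in an embryo and more of all others cannot be told apart. A total of 21 members had a count in every embryo, and none was without a count. All 10 oocyte markers and 9 of 10 zygotic markers were detected (Duxf3 was not matched), while 7 of 10 cumulus cell markers and 7 of 8 sperm markers had a median of 0. Control embryo 5 had by far the most cumulus marker counts, with a summed 1632 CPM against 10.6 to 268 CPM in the other control- and 3.51 to 302 CPM in the SER-generated embryos. Outside control embryo 5 these sums were mostly Amhr2. The other 9 markers summed to at most 97.9 CPM in the other control- and 18.2 CPM in the SER-generated embryos, and 7 control embryos lay above the highest SER value. In the edgeR fit without the filter Cyp11a1 (log2 fold change -5.35, adjusted p = 0.0256) and Inhba (-4.23, adjusted p = 0.0646) were lower in the SER group. Fshr, Has2 and Star also had lower estimates, and Ptx3 (1.84), Amh (0.74), Tnfaip6 (0.37) and Foxl2 (0.08) higher ones, none past the threshold. Amhr2 had 0.48 in the filtered fit. Cyp11a1 was at 1423 CPM in control embryo 5, at most 71.8 CPM in the other control- and at most 11.1 CPM in the SER-generated embryos. Inhba reached 120 CPM in the control group, which by these sums only control embryo 5 could hold, and 6.23 CPM in the SER group.

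**Figure D1:**
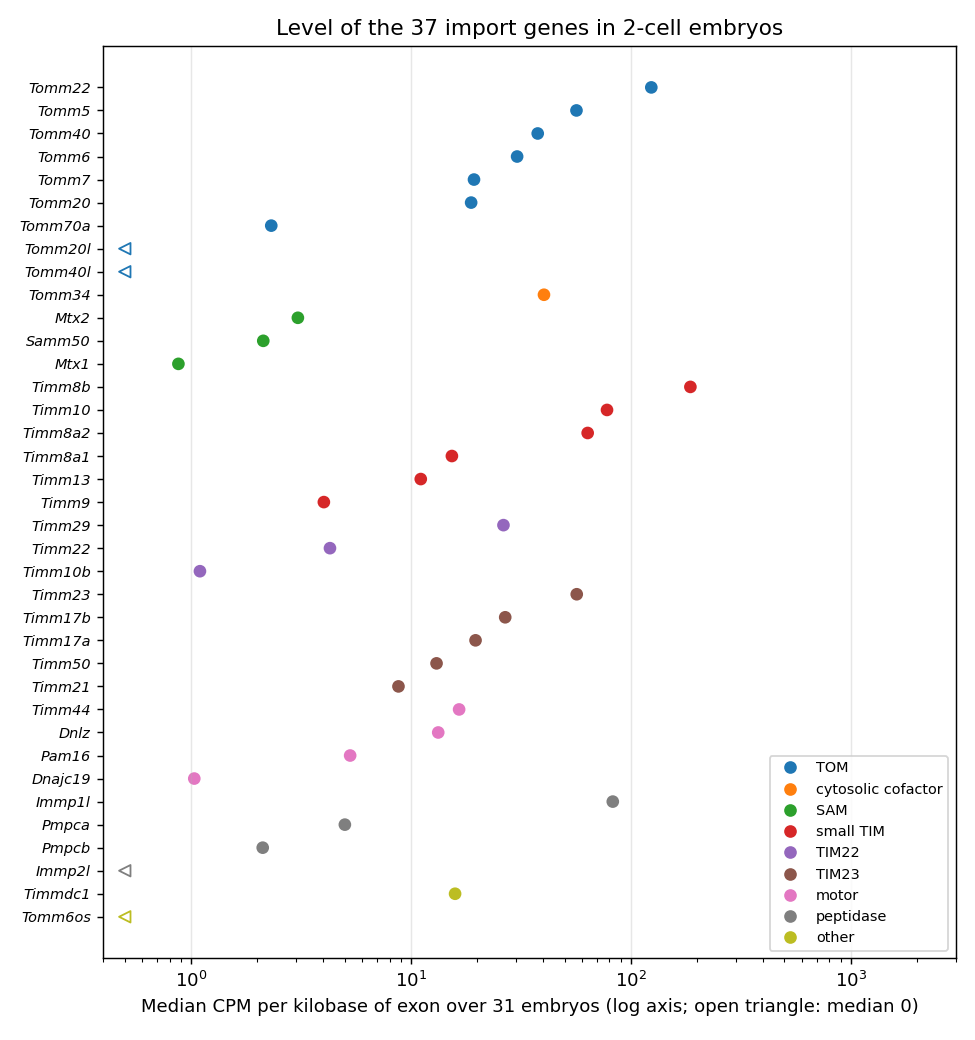
Median CPM per kilobase of exon over the 31 embryos (x, log axis) for each of the 37 import genes (y), coloured by their place in the import machinery; open triangles at the left edge mark a median of 0. Timm8b lies farthest right at 187, followed by Tomm22 at 124, while Tomm20l, Tomm40l, Immp2l and Tomm6os have a median of 0. Timm8b also has the fewest exon bases (518), and the order of the genes depends on this divisor.

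Levels differed widely within most complexes when compared per kilobase of exon. The divisor was the annotated exon bases of a gene, so these levels depend on that length. The reads include 5′ reads, and whether counts scale with exon bases was not tested. In the TOM complex, Tomm22, the central receptor, had a median of 124 CPM per kilobase over the 31 embryos. The small subunit Tomm5 had 56.7 and the pore Tomm40 had 37.8. The small subunits Tomm6 and Tomm7 had 30.4 and 19.4, the presequence receptor Tomm20 had 18.8, and the carrier receptor Tomm70a had 2.32. Tomm20l and Tomm40l, paralogs of Tomm20 and Tomm40, were at 0 in 26 and 22 of 31 embryos, with 13 and 43 counts in all. Most of the Tomm40l exon sequence, 3304 of 5135 bases, is shared with Nr1i3 on the other strand, and the strand setting of the counting is not given in the sources used here. The genes of the SAM complex were low throughout, with 3.06 for Mtx2, 2.13 for Samm50, its barrel-inserting core, and 0.877 for Mtx1.

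Among the small TIM chaperones, which work as paired rings, the partners were not matched in level per kilobase. Timm8b, which forms a ring with Timm13, had a median of 187 CPM per kilobase and Timm13 had 11.1. Timm10 and Timm9 form the other ring, and had 78.0 and 4.02. Timm8a2 and Timm8a1 had 63.7 and 15.4. In the TIM22 complex, the metazoan subunit Timm29 had 26.4, the channel Timm22 had 4.29, and Timm10b, which docks the chaperones, had 1.10. In the TIM23 complex, the channel Timm23 had 56.8, and its paired subunits Timm17b and Timm17a had 26.9 and 19.7. The receptor Timm50 had 13.1 and Timm21, which contacts the TOM complex, had 8.78. Of the motor, the anchor Timm44 had 16.6, Dnlz (an escort that keeps the mitochondrial Hsp70 soluble) had 13.3, Pam16 had 5.30, and Dnajc19, the J-domain partner of Pam16, had 1.04. Of the peptidases, Immp1l of the inner membrane peptidase had 82.9, while its partner Immp2l was at 0 in 18 of 31 embryos. The subunits of the presequence-cleaving peptidase had 5.01 for Pmpca and 2.12 for Pmpcb. Tomm34, a cytosolic cochaperone of incoming precursors, had 40.3, and Timmdc1, an assembly factor of respiratory complex I, had 15.9. Tomm6os, a transcript from the strand opposite Tomm6, was at 0 in 17 embryos. Tomm6os has 2944 exon bases, and its overlaps with Prickle4, Gm21981 and Tomm6 on the other strand add up to 2398. A base can count more than once in that sum. The counts of Tomm6os are thus limited in the same way as those of Tomm40l. Of the 1131 exon bases of Tomm6, 859 are shared with Gm21981 on its own strand. No strand setting separates these, so the counts of Tomm6 are limited in another way. Near-identical copies in the genome (at least 95% identity over at least 200 bases) were found for 6 loci outside Timm23, 4 outside Tomm20, and 1 each outside Timm17a, Immp1l, Dnajc19, Pam16 and Timm8a1, so the counts of these genes are less certain.

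SER- and control-generated embryos were compared with the quasi-likelihood test of edgeR on the counts of 8571 genes, of which 30 were import genes. The other 7, which were Mtx1, Timm10b, Tomm20l, Tomm40l, Dnajc19, Tomm6os and Immp2l, had too few counts. No gene passed an adjusted p of 0.1 (0 of 8571, 0%), and no import gene did. At an unadjusted p under 0.05 there were 4 of 30 import genes (13.3%) beside 491 of 8571 genes (5.73%). Of the 30 estimates, 14 were above 0 (higher in SER) and 16 below, beside 4515 above and 4056 below of all 8571. Their median log2 fold change was -0.01, beside 0.02 for all genes tested. The 4 were Timm8b, Immp1l and Dnlz, lower, and Timm29, higher, and the low estimate of Timm8b was known when these genes were chosen.

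**Figure D2:**
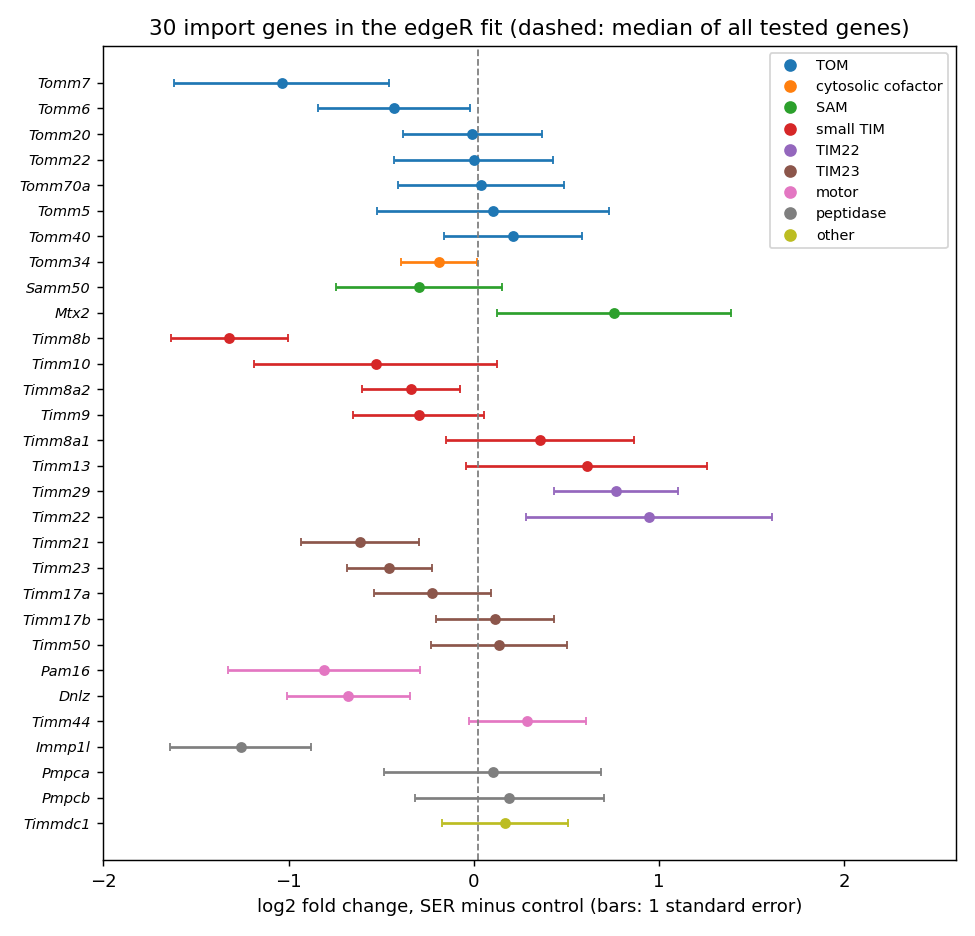
Log2 fold change (SER minus control) of the 30 import genes in the edgeR fit, with bars of 1 standard error, grouped and coloured by complex; the dashed line is the median of all 8571 genes tested, at 0.02. Timm8b at -1.32 and Immp1l at -1.26 lie lowest, Timm22 at 0.95 and Timm29 at 0.77 highest.

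Timm8b (ENSMUSG00000039016.5, chr9:50603910-50605320 on mm10, 518 exon bases, the shortest import gene) had the lowest estimate of the 30. It ranged from 67.7 to 692 CPM in the control group, with a median of 118, and from 23.4 to 107 CPM in the SER group, with a median of 73.4. All 15 SER-generated embryos lay below the control median, and 11 of 16 control-generated embryos lay above the highest SER value, but the ranges overlapped. The log2 fold change was -1.32 with a standard error of 0.32 (edgeR, unadjusted p = 0.000181, adjusted p = 0.242), with 5 of the 8571 genes at a smaller p. A stretch of 81 of its exon bases is shared with Nkapd1 on the other strand. The call depended on the fit. DESeq2, which called 49 of 8571 genes (0.572%), gave Timm8b a log2 fold change of -0.90 and an adjusted p of 0.0603. It was run at its default settings, which replace outlying counts, and whether a count of Timm8b was replaced was not recorded. With DESeq2's size factors in edgeR the log2 fold change was -1.36. edgeR without the filter, which called 504 of 17803 genes (2.83%), gave it an adjusted p of 0.0641. edgeR with 3 clusters of embryos estimated from the data as a term, which called 24 genes (0.28%), gave 0.0572. These clusters came from the same counts, so the p values of that fit can be too small. limma voom with quality weights, which called 848 genes (9.89%), gave -0.57 and 0.0872.

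Values of Timm8b were highest in 2 control-generated embryos, called here by their replicate numbers. Control embryo 3 had 692 CPM and control embryo 1 had 354 CPM, and the next control embryo had 192 CPM. Without both, the control median was 114 CPM, all 15 SER-generated embryos still lay below it, and the log2 fold change was -0.66 with an adjusted p of 0.678. Without control embryo 3 alone it was -0.90 with an adjusted p of 0.462. The same 2 embryos were the highest in short genes as a class. The median log2 deviation of the 140 tested genes with at most 1000 exon bases was 2.17 in control embryo 3 and 1.73 in control embryo 1, and at most 0.90 in any other embryo. Among these 140 genes the median log2 fold change was -0.53 and 118 had a lower estimate in SER (84.3%). With each embryo's trend on exon length removed, the log2 fold change of Timm8b was -0.48 (edgeR, adjusted p = 0.992). Control embryo 5, the embryo with the most cumulus marker counts, had 121 CPM of Timm8b, close to the control median.

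**Figure D3:**
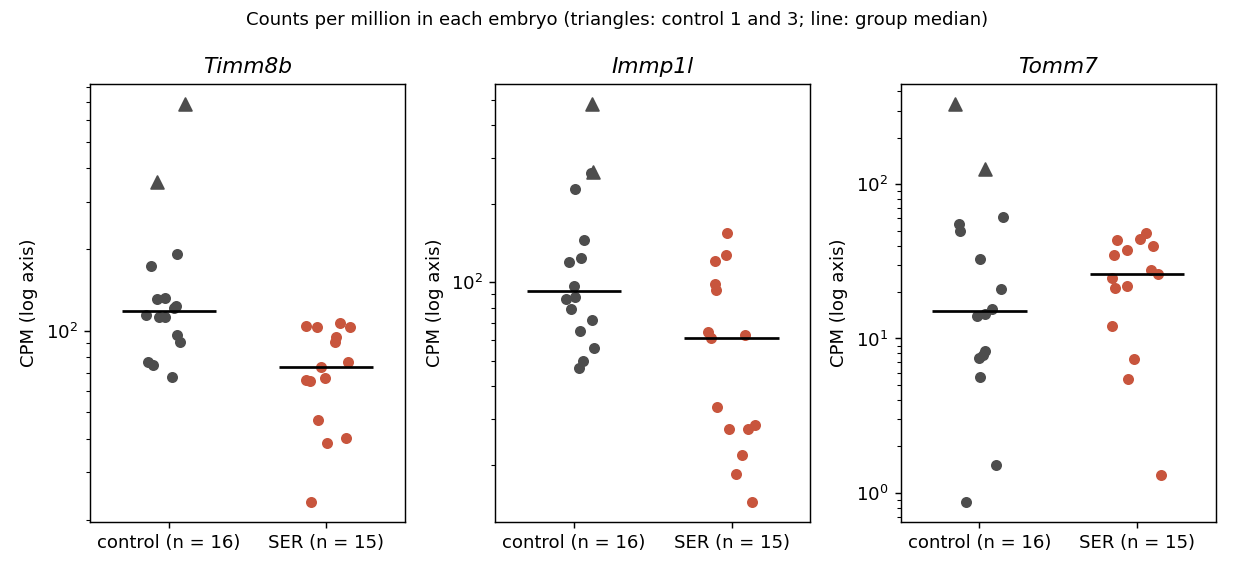
CPM of Timm8b, Immp1l and Tomm7 in each embryo (y, log axis), for 16 control-generated and 15 SER-generated embryos; each point is an embryo, triangles are control embryos 1 and 3, and lines are group medians. The SER points of Timm8b all lie below the control median of 118 CPM, and the triangles are the highest control values of Timm8b and Tomm7 and among the highest of Immp1l.

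Immp1l (ENSMUSG00000042670.5, chr2:105904638-105965558, 955 exon bases) had the next smallest p. It ranged from 46.9 to 485 CPM in the control group with a median of 92.3, and from 14.4 to 154 CPM in the SER group with a median of 61.3. Of the SER-generated embryos, 10 of 15 lay below the control median and 5 above it, so the groups overlapped. The log2 fold change was -1.26 with a standard error of 0.38 (edgeR, adjusted p = 0.403). DESeq2, edgeR without the filter, edgeR with 3 estimated clusters and limma voom each called it, at adjusted p values of 0.0867, 0.0782, 0.0723 and 0.0519. Control embryos 3, 1 and 12 were its highest, at 485, 265 and 262 CPM. Without control embryos 1 and 3 the estimate was -0.77 (adjusted p = 0.911). Removal of the length trend left -0.51 (adjusted p = 0.992). With the group means removed, the Pearson r with the short-gene level of an embryo was 0.66 for Timm8b and 0.01 for Immp1l over 31 embryos. Without control embryos 1 and 3 these were 0.39 and -0.42 over 29 embryos.

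Timm29 was the import gene with the smallest p among those with a higher estimate in SER. It ranged from 11.7 to 167 CPM in the control group (median 70.5) and from 16.7 to 238 CPM in the SER group (median 111), and 10 of 15 embryos of the SER group exceeded the control median. The log2 fold change was 0.77 with a standard error of 0.34 (edgeR, adjusted p = 0.809). limma voom with quality weights, which called 9.89% of all genes, called 5 of the 30 import genes, of which Timm29 was higher in SER (adjusted p = 0.0853) and Timm8b, Immp1l and Tomm34 were lower. The other, Timm17a, was higher in that fit (log2 fold change 0.65, adjusted p = 0.0570) and had -0.22 in edgeR, 0.03 without control embryo 3 and 0.33 without control embryos 1 and 3. Dnlz ranged from 18.8 to 191 CPM (median 49.8) in the control and from 6.23 to 86.5 CPM (median 32.6) in the SER group, with a log2 fold change of -0.68 and a standard error of 0.33 (adjusted p = 0.869). Timm23 ranged from 58.2 to 319 CPM (median 106) and from 33.5 to 144 CPM (median 90.3), with a log2 fold change of -0.46 and a standard error of 0.23 (adjusted p = 0.869), which was -0.30 without control embryo 12. Timm21 ranged from 14.8 to 99.5 CPM (median 40.7) and from 7.82 to 54.3 CPM (median 31.2), with a log2 fold change of -0.61 and a standard error of 0.32 (adjusted p = 0.869). In all of these the ranges of the groups overlapped.

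The remaining members at the top or bottom of their complexes per kilobase had estimates within 2 standard errors of 0. Tomm22 ranged from 19.6 to 743 CPM (median 191) in the control and from 8.96 to 456 CPM (median 245) in the SER group, with a log2 fold change of 0.00 and a standard error of 0.43 (adjusted p = 1.00). Mtx2 had medians of 9.63 (0 to 65.7) and 14.2 CPM (0 to 57.5), and a log2 fold change of 0.75 with a standard error of 0.63 (adjusted p = 0.936), which was 1.25 without control embryo 1. Timm9 had medians of 19.4 (2.73 to 44.6) and 16.02 CPM (7.77 to 31.9), and a log2 fold change of -0.30 with a standard error of 0.35 (adjusted p = 0.964). Timm44 had medians of 58.2 (5.85 to 116) and 60.7 CPM (18.1 to 179), and a log2 fold change of 0.29 with a standard error of 0.32 (adjusted p = 0.958). Tomm34 had medians of 137 (79.6 to 253) and 117 CPM (42.0 to 262), and a log2 fold change of -0.19 with a standard error of 0.21 (adjusted p = 0.958). Timmdc1 had medians of 27.5 (5.63 to 69.2) and 28.4 CPM (6.77 to 78.0), and a log2 fold change of 0.17 with a standard error of 0.34 (adjusted p = 0.978).

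Tomm7, chosen after its values were seen, had a mean and a median that went in opposite directions. Its median was 15.0 CPM in the control and 26.3 CPM in the SER group, and 11 of 15 embryos of the SER group exceeded the control median. The log2 fold change, which compares means, was -1.04 with a standard error of 0.58 (edgeR, adjusted p = 0.869). Control embryos 3 and 1 had 334 and 125 CPM, and the highest of the other 14 control embryos had 61.6 CPM. Without these 2 embryos the log2 fold change was 0.32.

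The other 17 import genes in the fit had log2 fold changes from -0.81 (Pam16) to 0.95 (Timm22), with adjusted p values of 0.926 or above. Pam16 had medians of 11.6 and 14.5 CPM, higher in SER, and its log2 fold change was -0.35 without control embryo 3 and 0.19 without control embryos 1 and 3. Of the 7 that had too few counts, the fit without the filter gave log2 fold changes from -0.98 to 0.48, with adjusted p values from 0.658 to 0.998. Mtx1 had medians of 2.26 CPM in the control (0 to 32.2) and 8.09 CPM in the SER group (0 to 24.6). Timm10b had medians of 3.83 (1.30 to 13.2) and 4.67 CPM (0 to 27.0), and Dnajc19 had 5.21 (0 to 18.4) and 4.17 CPM (0 to 8.96). Among the 37 genes, 5 (Timm13, Tomm70a, Samm50, Mtx1 and Dnajc19) had their highest control value in control embryo 5, and the part of its cumulus RNA in these values was not tested. By complex, the summed level had medians of 616 and 642 CPM for TOM, 29.2 and 47.9 for SAM, 316 and 285 for the small TIM genes, 85.4 and 138 for TIM22, 414 and 417 for TIM23, 146 and 123 for the motor and 140 and 96.7 for the peptidases, control before SER, with overlapping ranges in each. Both members of TIM22 in the fit had a higher estimate in SER, and of the small TIM genes 4 of 6 had a lower one. Of all 8571 genes tested, 4515 had a higher and 4056 a lower estimate. Among these 4, Timm10 went to 0.36 without control embryos 1 and 3, and Timm8a2 to 0.09 with the length trend removed. Timm8b and Timm9 kept their sign in every fit.

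Exon length ran through the comparison as a whole. The median log2 fold change was -0.53 for tested genes of at most 1000 exon bases, -0.18 for those up to 2000, -0.01 up to 4000, 0.05 up to 8000 and 0.11 above that. The 5 import genes of at most 1000 bases, which were Timm8b, Immp1l, Timm10, Tomm5 and Timm8a2, had a median of -0.53, and 4 of the 5 had a lower estimate in SER. The 7 of up to 2000 bases had a median of 0.00, the 10 of up to 4000 bases 0.12, and the 7 of up to 8000 bases -0.01, while Tomm70a, the only longer one, had 0.04. Timm8b and Immp1l thus lay below the median of their length class, Timm10 at it, and Timm8a2 and Tomm5 above it. Timm10 gives the median of the 5 itself, and its -0.53 was -0.11 without control embryo 1 and 0.36 without control embryos 1 and 3, with a higher median in the SER group (92.8 against 57.5 CPM).

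**Figure D4:**
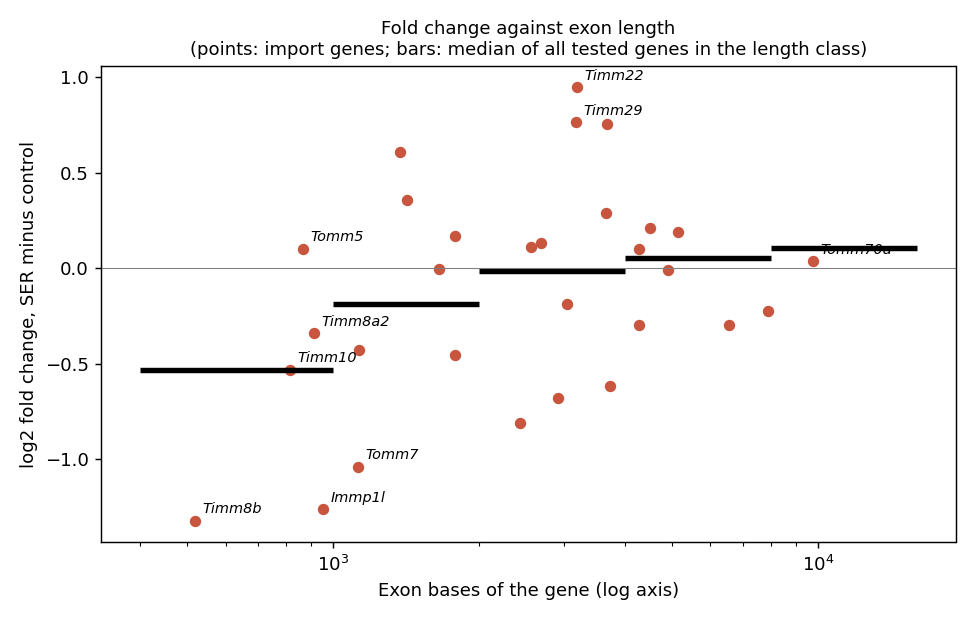
Log2 fold change (SER minus control, y) of the 30 import genes against their exon bases (x, log axis), with bars at the median of all tested genes in each length class. The bars rise from -0.53 in the shortest class to 0.11 in the longest; Timm8b and Immp1l lie below the first bar and Timm22 and Timm29 above the third.

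Several neighbours on the opposite strand start close to an import gene. Sdhd, a subunit of respiratory complex II, starts 98 bases from Timm8b and runs the other way. It had medians of 7.94 CPM (0 to 26.1) in the control and 8.34 CPM (0 to 60.4) in the SER group, with a log2 fold change of 0.25 and a standard error of 0.58 (edgeR, adjusted p = 0.981), and its Pearson r with Timm8b over the 31 embryos was -0.16. Elp4, a subunit of the Elongator complex, starts 74 bases from Immp1l. It had medians of 8.50 (0 to 32.4) and 1.23 CPM (0 to 37.4), a log2 fold change of -0.93 with a standard error of 0.66 in the fit without the filter (adjusted p = 0.658), and an r of 0.38 with Immp1l. Parg starts 51 bases from Timm23, with a log2 fold change of 0.33 (standard error 0.29, adjusted p = 0.936) and an r of -0.01. The start of Yipf2 overlaps that of Timm29, and its log2 fold change in the fit without the filter was 0.07 (standard error 0.69, adjusted p = 0.988). Stk4 starts 847 bases from Tomm34, with a log2 fold change of 0.47 (edgeR, standard error 0.36, adjusted p = 0.935) and an r of -0.03. The neighbour of Timm9, 2700049A03Rik, was not matched in the counts.

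The embryos also varied along an axis computed within the groups. After the group means were removed, 30.5% of the variance of the tested genes lay on 1 component, here called the leading component and given the sign at which the zygotic gene Eif1a is positive. Of the zygotic markers tested, 8 of 9 had a positive Pearson r with it (from -0.02 for Zscan4d to 0.85 for Tdpoz4 and Eif1a). Eif1a is among these by the choice of sign, so its sign carries no information. Of the oocyte markers, 7 of 9 had a negative r with the component (from -0.82 for Bmp15 to 0.30 for Oosp1). Control embryo 4 and SER embryo 15 stood apart at the negative end. Without them the component, computed again, had a positive r with 5 of 9 zygotic and a negative r with 7 of 9 oocyte markers. Eif1a was again positive by the choice of sign. The component also moved with the short-gene level of the embryos (r = 0.79 over 31 embryos, and 0.88 without these 2). Control embryo 4 and SER embryo 15 were the lowest of all in short genes (-1.60 and -1.82), followed by SER embryo 13 (-0.79). The part of the short-gene level in the values that follow was not tested. Their zygotic markers summed to 45.3 and 140 CPM, the lowest of each group, against group medians of 506 and 669 CPM, and their oocyte markers summed to 4357 and 6324 CPM against 1876 and 2088 CPM.

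The outer membrane genes Tomm20, Tomm22 and Tomm5 and the chaperone Timm10 followed this axis closely. Over the 31 embryos the r with the leading component was 0.94 for Tomm20, 0.88 for Tomm22, 0.88 for Timm10 and 0.87 for Tomm5, and 26 of the 8571 genes were above Tomm20. Tomm20 was at 3.02 CPM in control embryo 4 and 1.17 CPM in SER embryo 15, against group medians of 96.3 and 90.1 CPM. Tomm22 was at 19.6 and 8.96 CPM in the same embryos. Timm10 and Tomm5 had no count in control embryo 4, SER embryo 13 or SER embryo 15. Their medians were 57.5 and 36.7 CPM in the control and 92.8 and 52.6 CPM in the SER group, and both are among the short genes, at 815 and 868 exon bases, whereas Tomm22 has 1651 and Tomm20 has 4906.

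Of the 30 import genes, 12 had an r over 0.5 with this component, beside 28.4% of all tested genes, and the median r was 0.39 beside 0.08. When the component was computed again without control embryo 4 and SER embryo 15, over 29 embryos, 11 members had an r over 0.5 beside 16.5% of all tested genes. The values were then 0.82 for Tomm20, 0.83 for Tomm22, 0.85 for Timm10 and 0.81 for Tomm5, while Timm17a went from 0.62 to 0.84 and Timm29 went from 0.73 to 0.24. Over all 31 embryos Immp1l had -0.44, Timm8a2 -0.43, Timm8b 0.28 and Timm23, the inner membrane channel, 0.06. Without the 2 embryos these were -0.26, -0.43, 0.21 and -0.16. Genes in these correlations share the depth of their libraries and batches that no label names.

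**Figure D5:**
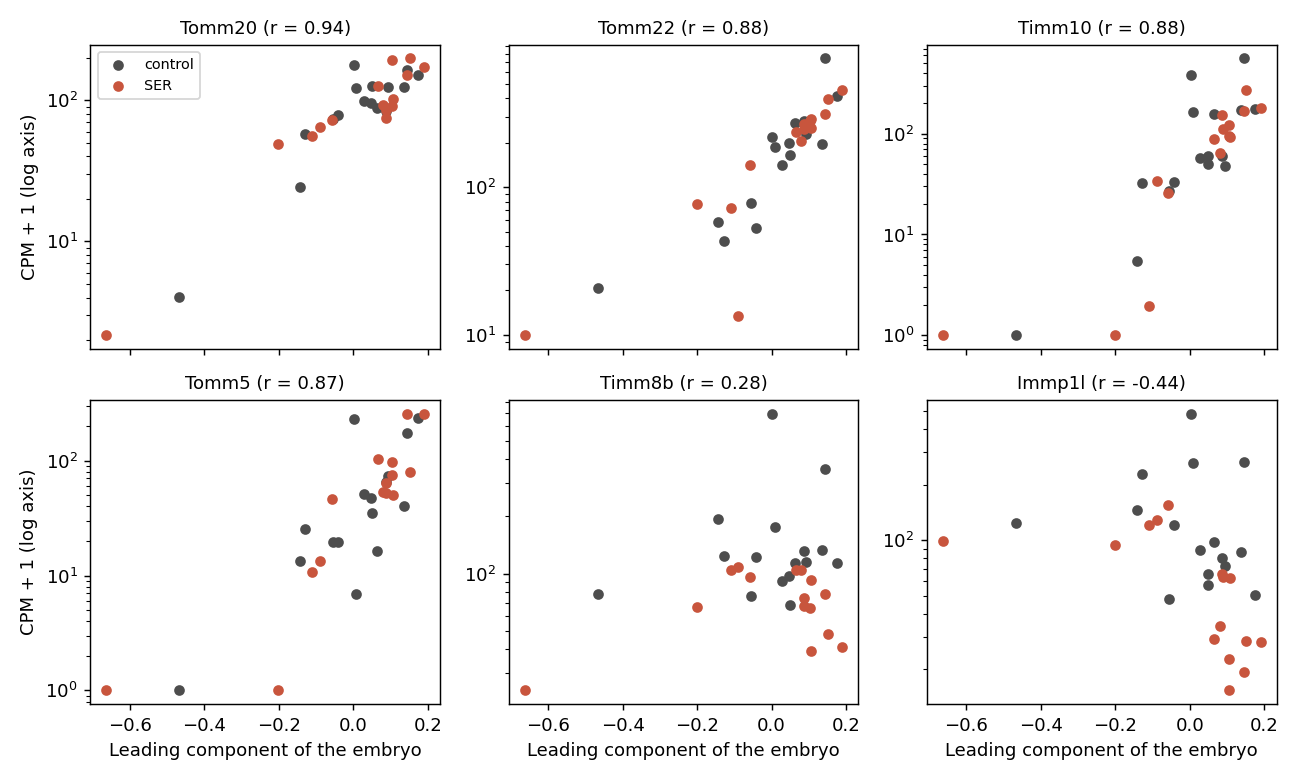
CPM + 1 (y, log axis) of Tomm20, Tomm22, Timm10, Tomm5, Timm8b and Immp1l against the position of each embryo on the leading component (x, unitless, with a sign at which Eif1a is positive), with 16 control- and 15 SER-generated embryos as points coloured by group. Tomm20, Tomm22, Timm10 and Tomm5 rise from left to right in both groups, with r from 0.87 to 0.94, whereas Timm8b has an r of 0.28 and Immp1l of -0.44.

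Between members, the median Pearson r of the 435 pairs was 0.13, beside 0.03 for all pairs of tested genes, and 65 pairs (14.9%) had an r over 0.5 beside 9.13% of all pairs. The pair with the highest r was Timm10 and Tomm5, at 0.89 (Spearman's rho 0.80), which was 0.81 without control embryo 4 and SER embryo 15. Timm10 with Tomm20 had 0.82 and Tomm20 with Tomm22 had 0.79. Timm8b and Immp1l had 0.55. The lowest was Immp1l with Timm29, at -0.63 (Spearman's rho -0.63). The coefficient of variation over the 31 embryos had a median of 72.1% for the import genes in the fit and 62.8% for all tested genes. It was smallest for Tomm34 (37.0%), Timm8a2 (45.8%) and Timm23 (47.1%), and largest for Tomm7 (163%).

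The import pathway holds further genes outside this naming, and 19 of them were listed, with 15 in the fit. None of the 15 passed an adjusted p of 0.1 in edgeR (lowest 0.403), beside 0 of all 8571 genes. Their median log2 fold change was -0.11, beside 0.02 for all genes, of which 4515 had a higher and 4056 a lower estimate. Of the 15, 7 had a higher and 8 a lower estimate. Only 1 had an unadjusted p under 0.05, beside 491 of 8571 genes (5.73%). The 1 was Romo1, an inner membrane protein tied to the TIM23 complex, with medians of 290 CPM (175 to 1054) in the control and 273 CPM (80.2 to 502) in the SER group and a log2 fold change of -1.03 with a standard error of 0.31. Hspa9, the mitochondrial Hsp70 of the import motor, had medians of 396 and 350 CPM and a log2 fold change of -0.13 with a standard error of 0.19 (edgeR, adjusted p = 0.968). Gfer, the oxidase of the intermembrane space import route, had medians of 82.9 and 95.2 CPM, and its partner Chchd4 had 7.13 and 3.91 CPM. Grpel1, the nucleotide exchange factor of the motor, had 63.4 and 83.6 CPM with a log2 fold change of 0.00 and a standard error of 0.28 (adjusted p = 1.00). The other genes of the list, Mtx3, Grpel2, Dnajc15, Dnajc11, Agk, Mipep, Xpnpep3, Pitrm1, Oxa1l, Cox18, Mtch1, Mtch2, Yme1l1 and Oma1, had medians from 0 to 117 CPM in either group.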

How the data were processed

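Single 2-cell embryos were sequenced by Smart-seq3, in which a molecular identifier marks 5′ reads but not internal ones. Per the submitters' processing notes and the methods, the authors aligned reads with STAR to mm10, removed duplicates, and counted them per gene with featureCounts. The counts are deposited as whole numbers for 20544 symbols and 31 embryos; 0 columns belonged to other samples. The study's ComBat-seq correction was not repeated, because no label gives an embryo's batch. Groups were compared by edgeR 4.0.16 (R 4.3.3; quasi-likelihood, TMM, Benjamini-Hochberg over all genes, adjusted p under 0.1) on 8571 genes that passed filterByExpr (count of at least 10, total of at least 15). A standard error of an edgeR estimate is the absolute log2 fold change over the square root of the F statistic of its test. Members that failed the filter were read from a fit of 17803 genes with a count. CPM used library totals of 532945 to 3088396, and 3 counts are 5.63 CPM in the smallest and 0.971 CPM in the largest. Correlations used log2 CPM (0.5 added) with group means removed. Exon lengths and positions came from GENCODE release 21 (20020 symbols matched, 334 by an older symbol, 190 not found). DESeq2 1.42.0 and limma 3.58.1 gave alternative fits, as did a lowess trend on exon length (span 0.3). The members and lists were chosen with earlier results of these data known. Full values are given for Timm8b, for the 6 smallest p among members in the fit, and for the highest of each complex. They are also given for the lowest of a complex where that gene was in the fit. Neighbours of these genes that start within 1000 bases on the other strand are given too.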

Additional observations from a re-analysis of the deposited data

How the results depend on the processing

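No import gene passed the threshold with DESeq2's size factors, a stricter filter (10 counts in 15 embryos), library size as a covariate, the exon length trend removed or any of 31 fits that left out 1 embryo (0 to 0 members). None of these fits called any other tested gene either, so the 0 is not particular to the import genes. Called members numbered 2 without the filter (2.83% of all genes called), 2 with DESeq2 (0.572%), 2 with 3 estimated clusters (0.28%; Timm8b and Immp1l in each) and 5 with limma voom (9.89%), where the members' median log2 fold change was 0.32. With 1 embryo left out, that median ran from -0.15 to 0.05. No label says whether equal replicate numbers pair embryos. Same-number correlations had a median of 0.11, beside 0.01 for other pairs, and ran from -0.35 to 0.48. Of the 15, 8 were over 0.1, and 4 control embryos correlated best with their own number. Whether equal numbers share a male or a batch was not tested. With the replicate block no tested gene was called, and so no member was (0). The median of the members was -0.06, Timm8b was -0.99 (adjusted p = 0.999) and Immp1l -1.12. With the replicate block and the length trend removed together, Timm8b was -0.51 and the median 0.02. Alternatives chosen after seeing the data left out control embryos 1 and 3 (median 0.20) or control embryo 4 and SER embryo 15 (Timm8b -1.29). With 1 embryo left out, Timm8b ran from -1.38 to -0.90 (adjusted p from 0.170 to 0.511) and Immp1l from -1.41 to -0.94; the highest of each was without control embryo 3. Of 30 members, 15 kept their sign in every fit. Tomm22, near 0, changed sign with DESeq2's size factors (0.0023), no filter (0.019), DESeq2 (0.0048), limma voom (0.57), the length trend removed (0.30, and 0.15 with the block), the 2 pairs of embryos left out (0.40 and 0.0020) and in 11 fits without 1 embryo, which ran from -0.14 to 0.33. Timm17a (0.65), Timm10 (0.63) and Pam16 (0.44) changed sign with limma voom. Tomm7 changed sign with limma voom (0.72), the block with the length trend (0.13) and without control embryos 1 and 3 (0.32), and Timmdc1 with the block (-0.076). The cause of these changes was not tested. Depth limits the genes at a few CPM. Internal reads carry no identifiers, so a count may understate its error, which was not tested.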
